A study of Mus musculus with 24 samples.

Results

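Cxcl9, Cxcl10, Cxcl11 and Ccl5 encode chemokines that attract T cells, and Cxcr3 encodes the receptor of the first 3. The rows of a gene count table whose Ensembl identifiers carry these symbols were taken, which gave 5 genes of 53465, each with 1 row. All 5 were followed in 12 mouse mammary tumours. Input RNA and RNA bound by J2, an antibody to double-stranded RNA, had been sequenced from each tumour.

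Cxcl9, Cxcl10 and Cxcl11 are small secreted proteins that tumour, stromal and myeloid cells make in response to interferons, in part through the factor IRF1. Cxcl9 depends mostly on interferon gamma, a product of T and NK cells, whereas Cxcl10 and Cxcl11 also respond to type I interferons and Cxcl10 to NF-kappaB. Their shared receptor CXCR3 sits on activated T cells and NK cells and draws them into inflamed tissue and tumours. Ccl5, also called RANTES, is made by T cells, NK cells and other cells, and acts through receptors that include Ccr1 and Ccr3.

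The study concerned IRE1α, a ribonuclease that senses stress in the endoplasmic reticulum, and its effect on RNA that forms double strands. The tumours were of the 1 p53-null line 2153L, a mouse model of triple-negative breast cancer, and grew from fragments placed in cleared mammary fat pads. The hosts were BALB/c females, 6 to 8 weeks old, with an intact immune system. Every group therefore carried the p53 knockout, and the effect of that deletion was not compared. Mice received vehicle, the IRE1α ribonuclease inhibitor ORIN1001 (150 mg/kg by gavage each day), docetaxel, a taxane that blocks cell division (10 mg/kg into the peritoneum each week), or both drugs, here called the combination. Mice on a single drug also received the vehicle of the combination arm. With 3 tumours per treatment, labelled biological replicates, and an input and a J2 library per tumour, there were 24 libraries in 8 groups.

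In mega-counts (M), gene counts came to 3.27 to 63.3 M per input library and 2.54 to 18.7 M per J2 library. The input of docetaxel tumour 3 stood apart. It held the fewest counts, and ribosomal RNA loci took 70.8% of them, whereas the share was 0.643% to 3.39% elsewhere among the inputs. At its depth a count of 0 allows up to 3.76 counts per M (CPM, with library totals scaled by TMM), with counting error only. Among the J2 libraries, ribosomal RNA loci took 22.9% to 58.6% of the counts in the combination group, 17.1% in docetaxel tumour 3 and 1.29% to 6.10% in the rest. All 10 mammary epithelial markers were detected in every treatment, with a summed input level of 1729.5 to 2965 CPM per tumour.

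The Cxcl9, Cxcl10 and Cxcl11 genes lie side by side on chromosome 5 of GRCm38.p6 (also called mm10), at 92321331 to 92328079, 92346638 to 92348889 and 92359544 to 92363296. Cxcl10 and Cxcl11 fall within the span of Art3 (92331799 to 92414628), and RefSeq lists Cxcl11 as a transcribed pseudogene in this assembly. Ccl5 lies on chromosome 11 (83525778 to 83530518) and Cxcr3 on chromosome X (101731535 to 101734147). The strand setting of the counting is not given in the sources used here, so reads of Art3 cannot be told apart from those of the 2 genes inside it.

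RefSeq promoter windows, from 250 bases before the start to 50 after it, were matched for 3 of the 5 genes. The pair below is shown because Cxcl9 and Cxcl10, neighbours on the minus strand, had unlike patterns across the treatments. Capitals mark matches to the interferon response core GAAANNGAAA or to the kappaB motif, searched on both strands, and positions count from the start of transcription. The interferon gamma motif TTCNNNGAA was also searched.
Cxcl9, chr5:92328030-92328329, minus strand: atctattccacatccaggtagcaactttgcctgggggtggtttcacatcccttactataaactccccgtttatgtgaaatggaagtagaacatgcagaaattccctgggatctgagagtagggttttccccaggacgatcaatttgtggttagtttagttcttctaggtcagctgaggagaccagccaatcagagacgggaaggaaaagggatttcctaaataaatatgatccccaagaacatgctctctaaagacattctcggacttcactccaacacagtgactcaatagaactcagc
Cxcl10, chr5:92348840-92349139, minus strand: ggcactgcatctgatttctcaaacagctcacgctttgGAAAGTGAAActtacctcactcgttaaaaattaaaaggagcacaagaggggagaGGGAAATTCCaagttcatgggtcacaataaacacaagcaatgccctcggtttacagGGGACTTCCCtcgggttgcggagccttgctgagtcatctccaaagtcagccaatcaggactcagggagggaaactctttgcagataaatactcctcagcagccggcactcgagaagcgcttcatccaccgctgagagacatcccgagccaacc
In the Cxcl10 window the interferon response core stood at -213 to -204 and kappaB matches at -159 to -150 and -103 to -94, none overlapping another. The Cxcl9 window and that of Cxcr3 held no match to any of the 3 motifs. Of 32851 RefSeq windows of this length, 3.44% held the interferon response core, 4.51% kappaB and 8.3% the interferon gamma motif. These are letter matches in short windows, and no binding was measured.

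In input RNA, 3 of the 5 genes rose in combination tumours against vehicle: Cxcl9, Cxcl10 and Cxcl11. By the same rule (edgeR quasi-likelihood test, Benjamini-Hochberg adjusted p under 0.05), 2.8% of the 17768 genes tested rose. Each of the 3 chemokines also rose against ORIN1001 alone, where 7.2% of genes rose, and against docetaxel alone, where 5.46% did. Cxcr3 rose against ORIN1001 alone. Ccl5 passed the threshold in no comparison of inputs. These 3 comparisons share the combination tumours. In bulk tumour RNA, more cells of a type and more RNA per cell cannot be told apart.

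Cxcl9 was at 43.4, 11.3 and 14.2 CPM in the 3 vehicle inputs and at 59.4, 72.3 and 41.2 CPM with ORIN1001. It was at 3.96, 9.88 and 0 CPM with docetaxel and at 316, 179.6 and 213 CPM with the combination. Every combination tumour was above every other tumour, and every docetaxel tumour below every vehicle tumour. The group means rose in the order docetaxel (4.61 ± 4.97, SD, n = 3), vehicle (23.0 ± 17.7), ORIN1001 (57.6 ± 15.6) and combination (236 ± 71.1), and of these neighbours only vehicle and ORIN1001 overlapped. The log2 difference between the combination and vehicle was 3.36 ± 0.59 (SE, edgeR adjusted p = 0.0348). Against ORIN1001 alone it was 2.04 ± 0.56 (edgeR adjusted p = 0.038), and against docetaxel alone 5.23 ± 0.67 (edgeR adjusted p = 0.0205). Without docetaxel tumour 3 the last difference was 5.04 (edgeR adjusted p = 0.0108).

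Cxcl10, the ligand with the broader set of inducers, was at 36.9, 16.2 and 14.7 CPM in vehicle inputs and at 17.1, 23.8 and 16.0 CPM with ORIN1001. Docetaxel tumours had 18.7, 27.3 and 20.0 CPM (the last from 16 counts), and combination tumours 77.5, 59.9 and 67.1 CPM. The combination again stood above all other tumours, while the other 3 groups overlapped throughout, with means from 19.0 ± 4.22 (SD, n = 3, ORIN1001) to 22.6 ± 12.4 CPM (vehicle). The log2 difference from vehicle was 1.59 ± 0.33 (SE, edgeR adjusted p = 0.0348). Against ORIN1001 alone it was 1.84 ± 0.33 (edgeR adjusted p = 0.0166) and against docetaxel alone 1.61 ± 0.34 (edgeR adjusted p = 0.024).

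Cxcl11, the third ligand of CXCR3, was at 6.11, 2.68 and 2.77 CPM in vehicle inputs and at 6.65, 6.21 and 3.46 CPM with ORIN1001. It was at 3.29, 4.36 and 1.25 CPM with docetaxel (the last from 1 count) and at 20.8, 11.6 and 12.7 CPM with the combination. Combination tumours were all above the rest, and neighbouring groups below them overlapped. Its log2 difference from vehicle was 1.96 ± 0.42 (SE, edgeR adjusted p = 0.0369), with 1.47 ± 0.42 against ORIN1001 alone (edgeR adjusted p = 0.0426) and 2.09 ± 0.45 against docetaxel alone (edgeR adjusted p = 0.0249).

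**Figure D1:**
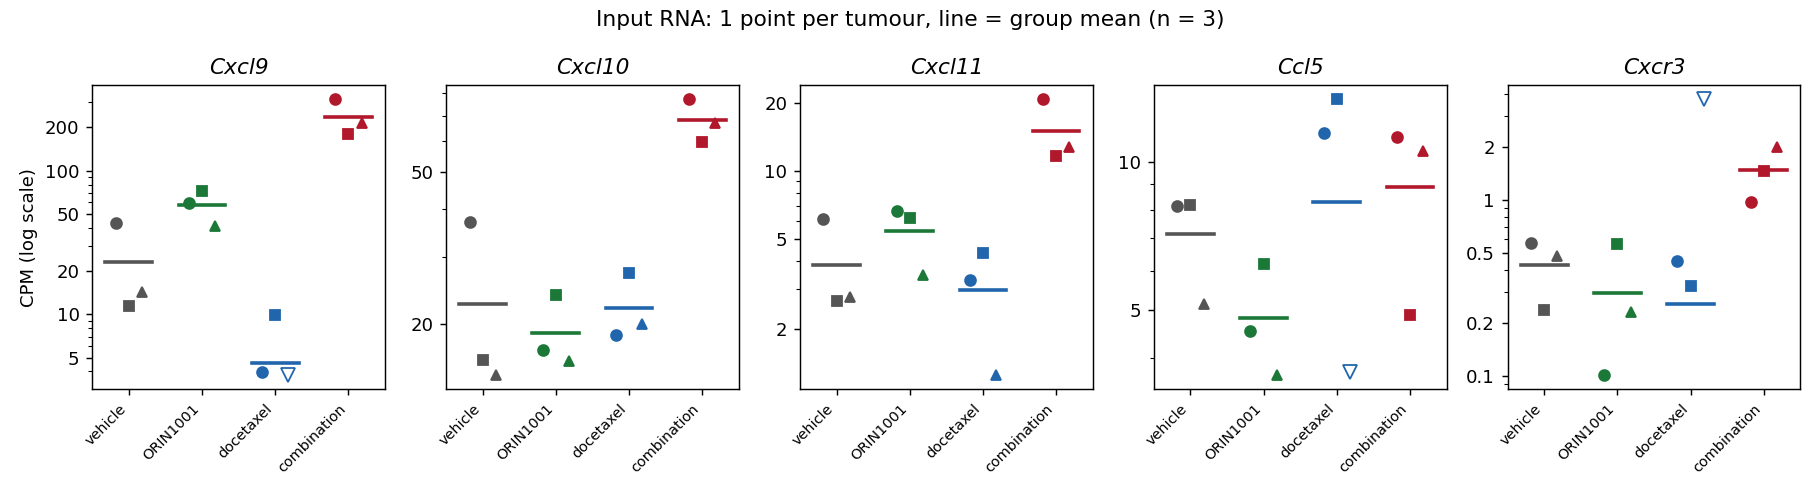
Level of each gene in the 12 inputs (y axis: CPM on a log scale, a separate scale per gene; x axis: treatment). Filled points are tumours (circle, square and triangle for replicates 1, 2 and 3), lines are group means with 0 counts taken as 0, and the open triangle marks the limit of 3.76 CPM that 0 counts allow in docetaxel tumour 3. Combination tumours sit above all others with counts for Cxcl9, Cxcl10, Cxcl11 and Cxcr3, and among the others for Ccl5.

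Ccl5, the chemokine that does not bind CXCR3, was at 8.12, 8.17 and 5.16 CPM in vehicle inputs and at 4.55, 6.21 and 3.69 CPM with ORIN1001. Docetaxel tumours had 11.4, 13.4 and 0 CPM and combination tumours 11.2, 4.88 and 10.5 CPM. All neighbouring groups overlapped, and 2 docetaxel tumours held the highest levels. The log2 difference between the combination and vehicle was 0.31 ± 0.55 (SE, edgeR adjusted p = 0.752), and between the combination and docetaxel -0.15 ± 0.56 (edgeR adjusted p = 0.91). Without docetaxel tumour 3 the latter was -0.48 (edgeR adjusted p = 0.357). Against ORIN1001 alone it was 0.89 ± 0.55 (edgeR adjusted p = 0.295).

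Cxcr3, the receptor, rested on few reads. The 9 inputs outside the combination held 0 to 23 counts each, and the combination inputs 16, 21 and 38. Its levels were 0.57, 0.24 and 0.48 CPM in vehicle and 0.10, 0.56 and 0.23 CPM in ORIN1001 tumours. Docetaxel tumours had 0.45, 0.32 and 0 CPM, and combination tumours 0.98, 1.46 and 2.00 CPM. The combination was above every other tumour, although the limit for docetaxel tumour 3 exceeds all of these values. The log2 difference was 2.38 ± 0.59 against ORIN1001 alone (SE, edgeR adjusted p = 0.0302). It missed the threshold against vehicle, at 1.80 ± 0.57 (edgeR adjusted p = 0.0761), and against docetaxel alone, at 2.04 ± 0.65 (edgeR adjusted p = 0.0779).

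Levels of 4 of the 5 genes did not overlap between the combination and vehicle, and all 4 were higher, as were 22% of all genes tested. The same 4 were higher without overlap against ORIN1001 alone, where 25.4% of genes were, and against docetaxel alone, where 16.7% were. For Cxcr3 against docetaxel, 0 counts in docetaxel tumour 3 were taken as 0 CPM. They allow up to 3.76 CPM, above every combination tumour. With 3 tumours against 3, an exact permutation test of 1 gene cannot give a p below 0.1, so that the tests rest on the spread that edgeR shares across genes.

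The calls in the combination depended on single tumours, while the sizes moved less. Against vehicle, leaving out vehicle 2, vehicle 3, combination 2, combination 3 or any 1 ORIN1001 tumour left 0 of the 5 genes past the threshold. The edgeR adjusted p was then 0.0513 to 0.135 for Cxcl9 and 0.053 to 0.138 for Cxcl10, and the number of called genes in the whole table went from 848 to between 0 and 75. Leaving out vehicle 1 or combination 1 left 2 of the genes, Cxcl9 and Cxcl10. Leaving out docetaxel tumour 3 gave 4, with Cxcr3 at an edgeR adjusted p of 0.0343. Across all such fits the log2 difference ran from 3.03 to 4.20 for Cxcl9, from 1.35 to 2.13 for Cxcl10 and from 1.65 to 2.45 for Cxcl11.

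Against ORIN1001 alone, no gene of the 5 was called without ORIN1001 3, combination 2 or combination 3, 1 (Cxcl10) without ORIN1001 1, and 2 (Cxcl10 and Cxcr3) without ORIN1001 2 or combination 1. Against docetaxel alone, none was called without docetaxel 1, docetaxel 2, combination 2 or combination 3. There the log2 difference of Cxcl9 still ran from 4.90 to 6.11.

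Neither drug alone moved any of the 5 genes past the threshold in input RNA, and 0% of all genes passed in either comparison. At an unadjusted p under 0.05 in edgeR, Cxcl9 was the single gene of the 5 in each, and DESeq2 and limma-voom also called 0 of the 5. For ORIN1001 against vehicle, the log2 difference of Cxcl9 was 1.33 ± 0.55 (SE, edgeR adjusted p = 1). For docetaxel against vehicle it was -1.86 ± 0.60 (edgeR adjusted p = 0.426), with all 3 docetaxel tumours lower, a pattern that 10.5% of genes shared. Without docetaxel tumour 3 it was -1.66 (edgeR adjusted p = 0.273). The other differences lay between -0.58 and 0.50 for ORIN1001 and between -0.24 and 0.47 for docetaxel. Between the single drugs, Cxcl9 was lower with docetaxel than with ORIN1001 by -3.19 ± 0.62 in log2 (edgeR adjusted p = 0.101), without overlap, as were 13.8% of genes. That comparison had 0 calls among the 5 genes and 0% among all genes in edgeR, 1 of the 5 in DESeq2 and 2 in limma-voom.

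The interaction asks whether the combination differs from the sum of both single-drug differences on the log2 scale. It was 3.90 ± 0.82 for Cxcl9 (SE, edgeR adjusted p = 0.0942) and 1.86 ± 0.47 for Cxcl10 (edgeR adjusted p = 0.0962). Cxcr3 had 2.61 ± 0.88 (edgeR adjusted p = 0.159), Cxcl11 1.59 ± 0.61 (edgeR adjusted p = 0.201) and Ccl5 0.42 ± 0.78 (edgeR adjusted p = 0.835). None of the 5, and 0% of all genes, passed in edgeR, although 4 of the 5 had an unadjusted p under 0.05. DESeq2 called 2 and limma-voom 3. Without docetaxel tumour 3, edgeR called 2, with Cxcl9 at 3.71 (edgeR adjusted p = 0.0369) and Cxcl10 at 1.82 (edgeR adjusted p = 0.0476).

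**Figure D2:**
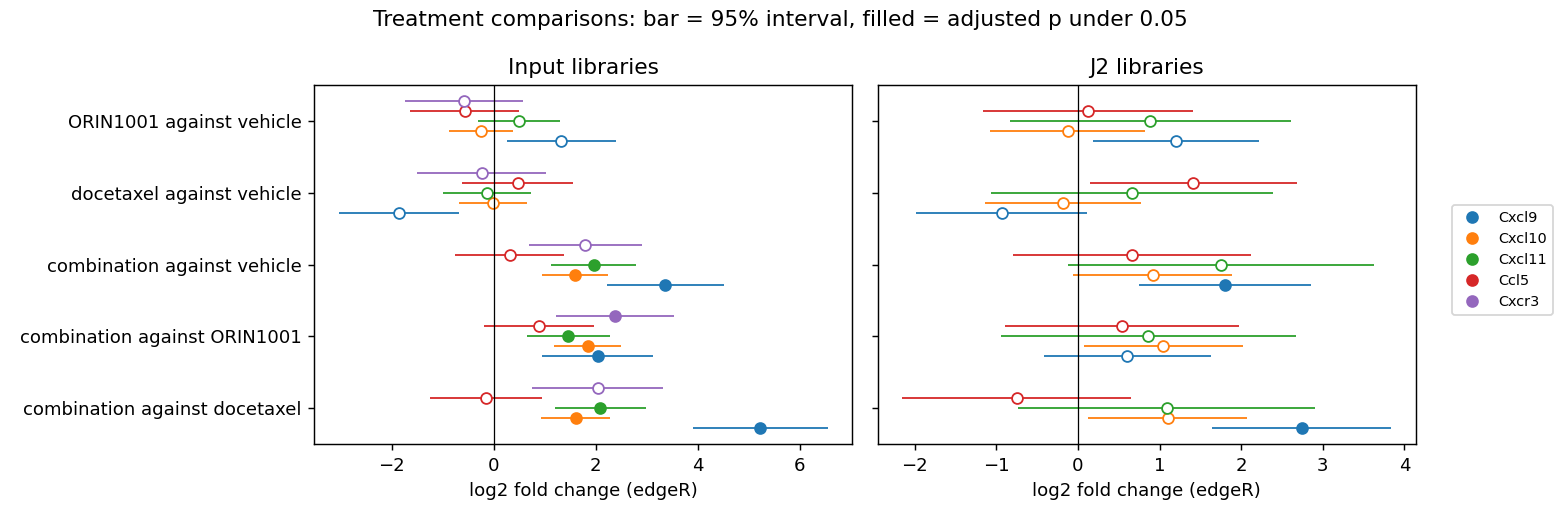
Log2 fold change from edgeR (x axis) for 5 comparisons of treatments (y axis), in input libraries (left) and J2 libraries (right), with each gene in its own colour. Bars are 95% intervals of the single comparison, and filled points passed an adjusted p of 0.05. Filled points appear in the comparisons of the combination alone, and Cxcr3 is absent on the right because it was too low to be tested there.

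The ratio of Cxcl9 to Cxcl10 counts within a library needs no scaling between libraries, and it separated treatments that the levels of Cxcl10 did not. In the inputs it was 1.18, 0.702 and 0.968 with vehicle and 3.47, 3.03 and 2.57 with ORIN1001. It was 4.08, 3.00 and 3.18 with the combination. Docetaxel tumours 1 and 2 had 0.211 and 0.362, and docetaxel tumour 3 had no Cxcl9 count beside 16 of Cxcl10. The ORIN1001 and combination ratios overlapped each other and stood above every vehicle ratio, and the docetaxel ratios below it, with 0.1 as the smallest exact permutation p that 3 against 3 allows. The ratios hold no gene length, so only their order across treatments can be read.

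Cxcl9 against Cxcl11 gave the same order of groups: 1.20 and 2.26 in docetaxel tumours 1 and 2, 4.24 to 7.10 with vehicle, 8.93 to 11.9 with ORIN1001 and 15.2 to 16.8 with the combination. Neighbouring groups did not overlap in this ratio. Cxcl11 against Cxcl10 ran from 0.166 to 0.189 with vehicle, from 0.216 to 0.388 with ORIN1001 and from 0.189 to 0.269 with the combination, so these groups lay close together or overlapped.

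**Figure D3:**
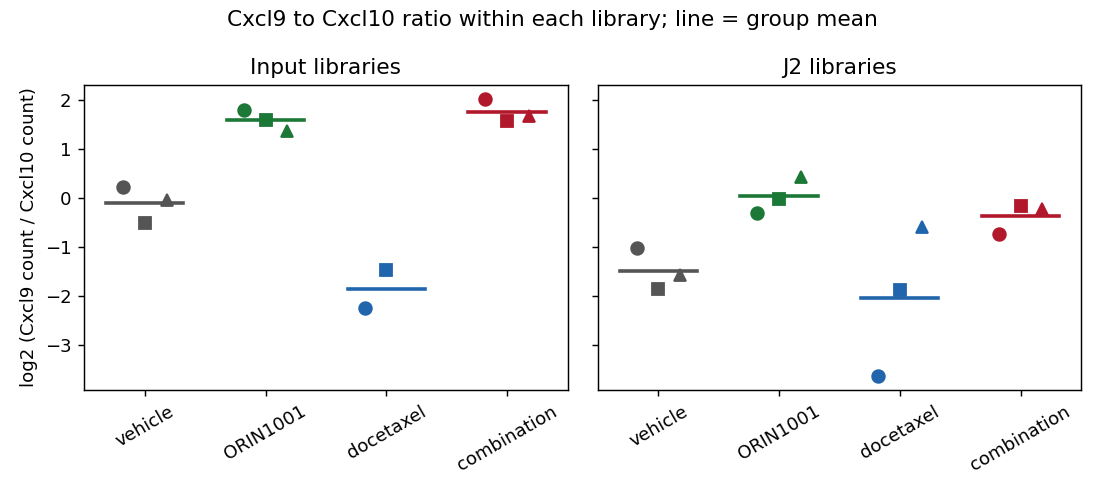
Log2 ratio of Cxcl9 to Cxcl10 counts (y axis) within each input (left) and J2 library (right), by treatment (x axis). Points are tumours and lines are group means, and the input of docetaxel tumour 3 is not drawn because it had 0 Cxcl9 counts. In the inputs ORIN1001 and combination tumours lie together above vehicle, and docetaxel tumours below it.

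Some genes of interferon gamma signalling rose in the same comparison as the 3 CXCR3 ligands. Of 15 tested genes of 17 listed, 5 rose in the combination against vehicle and 0 fell, with a median log2 difference of 0.91, against -0.03 over all genes tested. Of the 15, 9 had a positive difference and the rest a negative one, and 11 had an unadjusted p under 0.05 in edgeR, in either direction. Irf1, an interferon-induced transcription factor, rose by 0.91 ± 0.22 (SE, edgeR adjusted p = 0.0453). Ciita and Nlrc5, which switch on MHC class II and class I genes, rose by 2.49 ± 0.41 and 2.22 ± 0.55 (edgeR adjusted p = 0.0312 and 0.0465), and Gbp5, a guanylate-binding protein, by 1.58 ± 0.39 (edgeR adjusted p = 0.0465). The summed level of the list was 1118 to 1168 CPM with the combination, and 751 to 894, 819 to 973 and 681 to 804 CPM with vehicle, ORIN1001 and docetaxel. Ifng, which encodes interferon gamma itself, had 0 to 12 counts per input and was not tested.

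Of 15 tested genes of type I and III interferon signalling, 1 rose and 1 fell. The gene that fell was Irf3, a factor that acts before interferon is made, which dropped by 0.59 ± 0.14 in log2 (SE, edgeR adjusted p = 0.0456). The median of that list was 0.05. Among 14 genes of NF-kappaB and TNF signalling, 0 passed in edgeR and 2 had an unadjusted p under 0.05, with a median of -0.02. Against ORIN1001 alone, 4 interferon gamma genes rose and 1 fell (median 0.79), and against docetaxel alone 7 rose (median 0.82). In ORIN1001 and in docetaxel tumours against vehicle, none of these 3 lists had a gene past the threshold or with an unadjusted p under 0.05. The lists were not refitted without single tumours, and the fall to between 0 and 75 called genes described above includes their genes. The interferon lists overlap in membership. In J2 libraries of the combination against vehicle, 4 of 15 type I and III genes rose and 1 fell (median 0.60). There 9 of 15 interferon gamma genes rose and 2 fell (median 1.05), where 12.1% of all genes rose. Against ORIN1001 alone the type I and III list had 2 up and 2 down (median 0.46). Against docetaxel alone it had 5 up and 0 down (median 0.79), where 7.93% of all genes rose.

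Of the other ligands, receptors and modifiers that work with Ccl5 and the CXCR3 ligands, 11 of 12 listed genes were tested. In the combination 1 rose against vehicle, 1 against ORIN1001 alone and 1 against docetaxel alone, and the median log2 difference from vehicle was 0.49. Ccl4, a chemokine close to Ccl5, differed from vehicle by 0.87 ± 0.42 (SE, edgeR adjusted p = 0.205) and Dpp4, a protease that inactivates CXCR3 ligands, by 1.22 ± 0.66 (edgeR adjusted p = 0.258). Pf4, a platelet chemokine, fell by 2.14 ± 0.48 in log2 in the combination against ORIN1001 alone (edgeR adjusted p = 0.0234).

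Most other chemokines did not pass the threshold. Of 17 tested genes of 23 listed, Cxcl16, the ligand of Cxcr6 on T cells, rose in the combination by 1.07 ± 0.25 (SE, edgeR adjusted p = 0.0434), and the median of the list was -0.17. Cxcl16 was at 119 to 129 CPM in combination tumours and at 38.8 to 93.5 CPM in the rest. Of 12 tested chemokine receptors of 15 listed, 0 passed in edgeR and 5 had an unadjusted p under 0.05, with a median of 1.05. Against ORIN1001 alone, 2 chemokines rose, Cxcl16 by 1.28 ± 0.26 (edgeR adjusted p = 0.0191) and Ccl25, which attracts Ccr9-positive cells, by 0.98 ± 0.26 (edgeR adjusted p = 0.0344). In the same comparison 3 fell, among them the eosinophil attractant Ccl11 by 3.14 ± 0.80 in log2 (edgeR adjusted p = 0.0319). Of the 12 receptors, 2 rose and 1 fell against ORIN1001 alone (median 1.15), where 7.2% of all genes rose. None of the receptors passed against docetaxel alone. The genes listed as neighbours of Cxcl10 on chromosome 5 showed smaller differences from vehicle. They included Cnot6l, which lies 3721 kilobases from Cxcl10. Of 9 tested genes of 10 listed, 0 passed against vehicle in edgeR and 1 had an unadjusted p under 0.05, with a median of 0.23. Against ORIN1001 alone 1 neighbour rose and 3 had an unadjusted p under 0.05 in edgeR (median 0.34). Against docetaxel alone 0 passed and 3 had an unadjusted p under 0.05 (median 0.20). Art3, whose span holds Cxcl10 and Cxcl11, differed from vehicle by 0.77 ± 0.45 (edgeR adjusted p = 0.294). The ratio of Cxcl10 to Art3 counts was 9.44 to 16.3 in combination inputs and 4.92 to 8.08 in vehicle inputs, and the combination overlapped ORIN1001 (7.77 to 11.4) and docetaxel (8.00 to 21.0).

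Summed markers of T cells and of dendritic cells, and a summed list of NK and cytotoxic markers, were higher beside the chemokines in combination tumours. The NK cell gene Ncr1, at low levels, was not. The summed level of 14 T cell markers was 32.2 to 52.3 CPM per combination tumour, against 19.0 to 20.6 with vehicle, 13.0 to 24.5 with ORIN1001 and 11.3 to 17.3 with docetaxel. All 14 had a positive log2 difference from vehicle (median 1.26), and 1 passed the threshold, the costimulatory receptor Cd28, at 2.06 ± 0.47 (SE, edgeR adjusted p = 0.0413). Cd3e, a chain of the T cell receptor complex, was at 1.94 ± 0.56 (edgeR adjusted p = 0.0603) and Cd8a, the coreceptor of cytotoxic T cells, at 1.73 ± 0.51 (edgeR adjusted p = 0.0636). Against ORIN1001 alone 6 of the 14 rose, Cd3e, Cd8a, Cd8b1, Cd4, Cd28 and Cd247.

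Of 9 tested NK and cytotoxic markers, 2 rose against vehicle, the T-bet gene Tbx21 by 2.03 ± 0.43 (SE, edgeR adjusted p = 0.0365) and the receptor gene Klrk1 by 2.21 ± 0.54 (edgeR adjusted p = 0.0463). All 9 had a positive log2 difference from vehicle (median 0.997). Ncr1, which defines NK cells, was at 0 to 0.47 CPM with the combination, 0.16 to 0.24 CPM with vehicle and 0.52 to 1.67 CPM with ORIN1001. For Ncr1 the combination thus overlapped vehicle and lay below ORIN1001. In combination inputs a count of 0 allows up to 0.158 to 0.209 CPM, so the Ncr1 levels there lay near that limit. Against ORIN1001 alone, 5 of the 9 tested markers had a positive difference, with a median of 0.28, and 2 rose. The list summed to 15.2 to 20.0 CPM with the combination, 5.49 to 6.36 with vehicle and 7.78 to 14.8 with ORIN1001. Of 8 tested dendritic cell markers 2 rose, Clec9a, of cross-presenting dendritic cells, by 3.25 ± 0.78 (edgeR adjusted p = 0.0447) and Itgax by 1.22 ± 0.32 (edgeR adjusted p = 0.0497). Their list summed to 92.9 to 102 CPM with the combination and to 40.5 to 51.0 with vehicle.

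Of 10 macrophage and monocyte markers 0 passed in edgeR and 3 had an unadjusted p under 0.05, with summed levels of 529.6 to 802 CPM for the combination and 498 to 578 CPM for vehicle. Of 7 tested neutrophil markers 3 fell, S100a8 by 3.53 ± 0.73 in log2 (SE, edgeR adjusted p = 0.0348), S100a9 and Cd177. Of 10 fibroblast markers 1 rose, the protease gene Fap, by 1.29 ± 0.30 (SE, edgeR adjusted p = 0.0424), and 7 had a positive difference. Their summed level was 346 to 701 CPM with the combination, above vehicle (279 to 285 CPM) and overlapping ORIN1001 (306 to 1005 CPM) and docetaxel (205 to 2704 CPM). Of 7 B and plasma cell markers 2 were tested and 0 passed in edgeR, with 1 at an unadjusted p under 0.05 and a median of 1.03. What part the cell types had in the chemokine levels was not tested.

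Set against Cd3e within a library, Cxcr3 did not separate the treatments, with ratios of 0.174 to 0.292 in combination inputs, 0.136 to 0.316 in vehicle and 0.122 to 0.391 in ORIN1001 inputs. The ratio of Ccl5 to Cd3e set the combination and docetaxel apart, while vehicle and ORIN1001 overlapped. It was 0.972 to 2.00 with the combination, below all vehicle ratios (2.98 to 4.71) and all ORIN1001 ratios (2.17 to 6.26). Ccl5 levels themselves overlapped between the combination and vehicle (log2 difference 0.31), while Cd3e had the larger difference given above. The order of this ratio therefore carries Cd3e and cannot be read as Ccl5 alone. In docetaxel tumours 1 and 2 the ratio was 11.4 and 9.72, above all others, with 18 and 98 counts of Cd3e. Docetaxel tumour 3 had no count of either gene. With 3 tumours against 3 the smallest exact permutation p is again 0.1, and no test was run on the 2 docetaxel ratios.

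Across the 12 inputs, the genes whose log2 CPM was most like that of Cxcl9 were C1s1 (Pearson r = 0.985), Serpina3g, Pla2g4c, Gbp6 and Irgm2 (r = 0.970). Those most like Cxcl10 were Irf1 (r = 0.955), H2-DMa, Cd244a, Clec7a and Prr5l, and those most like Cxcl11 were Psmb9 (r = 0.947), Samhd1, Fbxw17, Snx10 and Gbp5. Cxcr3 was most like Cd8a (r = 0.954), Kcna3, Ptprc, Hvcn1 and Tlr1, and Ccl5 most like Cd52 (r = 0.993), Lancl2, Fgf1, Lst1 and Rpa2. The points share the 4 treatments and the low depth of docetaxel tumour 3, and genes at 0 in that library resemble each other through it.

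Without that library, over 11 inputs, Cxcl9 was most like Gbp2b (r = 0.978), Psme2b, Gbp4, Gbp7 and Iigp1. Cxcl11 was then most like Gbp3 (r = 0.963), with Cd274, Gbp9 and Diaph2 also among the 5. Irf1 and Clec7a stayed among the 5 for Cxcl10, Cd8a for Cxcr3, and Cd52 and Lancl2 for Ccl5. Between Cxcl9 and Ccl5, r was 0.75 over 12 inputs and -0.17 over 11, so that the first value rests on docetaxel tumour 3. Between Cxcl9 and Cxcl10 it was 0.58 and 0.77, and between Cxcl10 and Cxcl11 0.84 and 0.92.

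In J2 libraries, Cxcl9 rose in the combination against vehicle and against docetaxel, and no other gene of the 5 passed. Its J2 level was 17.3, 4.46 and 5.79 CPM with vehicle, 17.2, 26.5 and 19.8 with ORIN1001, 1.80, 8.56 and 3.91 with docetaxel and 37.7, 34.4 and 25.2 with the combination. Combination libraries stood above all vehicle libraries, as in 21.1% of genes, and above all docetaxel libraries, as in 12.8%, but overlapped ORIN1001. The log2 difference was 1.80 ± 0.54 against vehicle (SE, edgeR adjusted p = 0.0243), where 12.1% of the 15869 genes tested rose, and 2.74 ± 0.56 against docetaxel (edgeR adjusted p = 0.00845), where 7.93% rose. Against ORIN1001 alone it was 0.60 ± 0.52 (edgeR adjusted p = 0.397), and 0 of the 4 tested genes passed there, with 28.8% of all genes called in either direction. None of the 4 had an unadjusted p under 0.05 in that comparison, and DESeq2 and limma-voom called 0. The call against vehicle was lost without vehicle 2, vehicle 3, combination 1 or combination 2, with differences of 1.46 to 1.74 and edgeR adjusted p of 0.0569 to 0.0927, and the call against docetaxel held in each of the 12 fits without 1 tumour. With ribosomal RNA loci left out, a setting chosen after the table was seen, the differences were 1.85 and 2.81.

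Cxcl10 in J2 libraries was at 35.3, 16.1 and 17.1 CPM with vehicle and at 21.3, 26.8 and 14.6 CPM with ORIN1001. It was at 22.4, 31.5 and 5.86 CPM with docetaxel and at 63.0, 38.5 and 29.4 CPM with the combination. The combination overlapped vehicle and docetaxel and stood above ORIN1001, as did 20.2% of genes. The log2 differences were 0.92 ± 0.50 against vehicle (SE, edgeR adjusted p = 0.172), 1.04 ± 0.50 against ORIN1001 (edgeR adjusted p = 0.123) and 1.10 ± 0.50 against docetaxel (edgeR adjusted p = 0.123).

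The other 3 genes were sparse after J2 pull-down. Cxcl11 had 2 to 61 counts per library, with 2, 20 and 12 in the combination, Ccl5 had 2 to 77, with 2, 5 and 12, and Cxcr3 had 0 to 9 and was too low to be tested. For the combination against vehicle the log2 difference was 1.75 ± 0.96 for Cxcl11 (SE, edgeR adjusted p = 0.176) and 0.66 ± 0.74 for Ccl5 (edgeR adjusted p = 0.519). Under either drug alone 0 of the 4 tested genes and 0% of all genes passed in edgeR, with Cxcl9 at 1.20 ± 0.52 for ORIN1001 (edgeR adjusted p = 0.548) and -0.94 ± 0.53 for docetaxel (edgeR adjusted p = 0.789). At an unadjusted p under 0.05 there was 1 of the 4 for each drug, Cxcl9 for ORIN1001 and Ccl5 for docetaxel, and DESeq2 and limma-voom called 0.

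**Figure D4:**
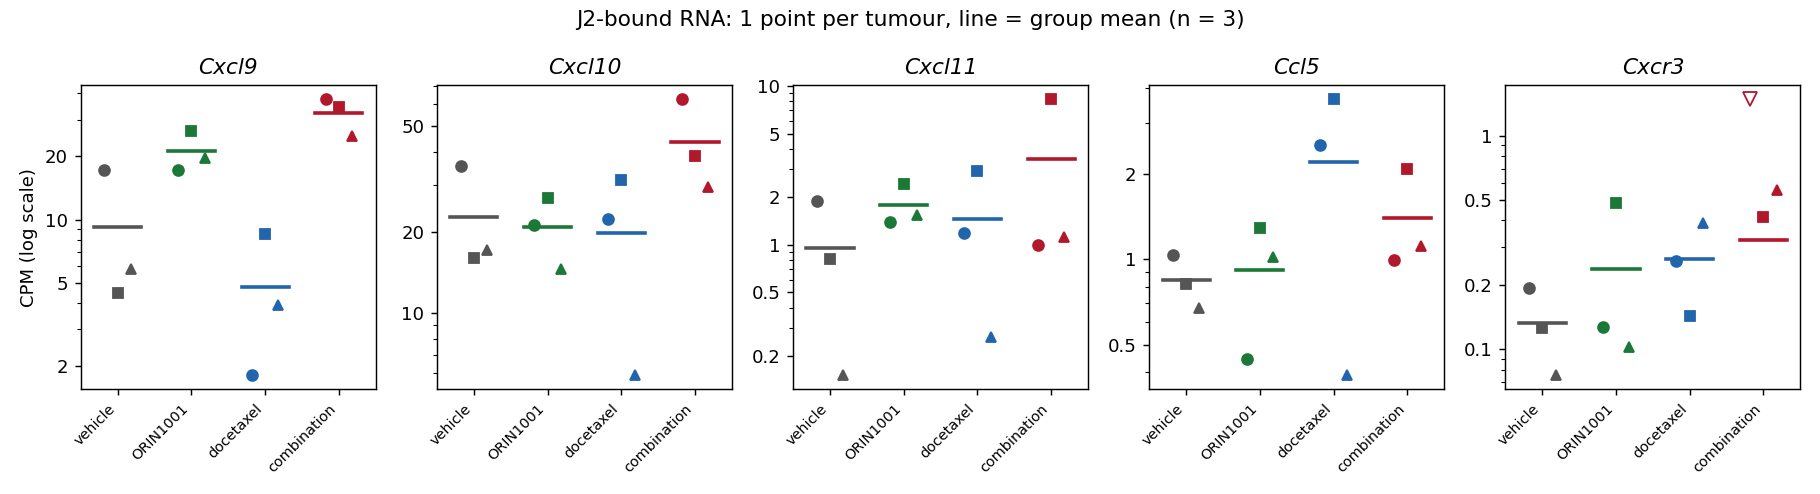
Level of each gene in the 12 J2 libraries (y axis: CPM on a log scale, a separate scale per gene; x axis: treatment). Filled points are tumours (circle, square and triangle for replicates 1, 2 and 3), lines are group means, and the open triangle marks the limit that 0 Cxcr3 counts allow in combination tumour 1. Cxcl9 in the combination (25.2 to 37.7 CPM) lies above vehicle and docetaxel, and the other tested genes overlap vehicle.

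The Cxcl9 to Cxcl10 ratio kept part of its order in J2 libraries. It was 0.277 to 0.491 with vehicle, 0.807 to 1.35 with ORIN1001 and 0.598 to 0.892 with the combination, so that both groups given ORIN1001 stood above vehicle. Docetaxel libraries had 0.0803, 0.272 and 0.667 and overlapped vehicle and the combination.

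J2 against input within a tumour compares the level of a transcript in both libraries. It is relative to the average gene, since both kinds of library were scaled to a common centre. The 24 libraries hold no pull-down without J2, so binding to the antibody cannot be told apart from other carry-over. Averaged over the treatments, 4 of the 5 genes were lower in J2 than in input, as were 30% of the 17338 genes tested. Ccl5 was lowest, at a log2 ratio of -2.32 ± 0.20 (SE, edgeR adjusted p = 9.97e-07), followed by Cxcl11 at -1.58 ± 0.28 (edgeR adjusted p = 0.000244), Cxcl9 at -1.27 ± 0.14 (edgeR adjusted p = 5.66e-06) and Cxcr3 at -0.97 ± 0.30 (edgeR adjusted p = 0.012). Cxcl10 was near the centre, at 0.05 ± 0.13 (edgeR adjusted p = 0.786). The median over all genes tested was -0.05. Of 16 tested other chemokines, 11 were lower and 1 higher in J2, with a median of -0.69.

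By treatment, Cxcl9 had a log2 ratio of -1.09 ± 0.27 with vehicle (SE, edgeR adjusted p = 0.00589) and -1.20 ± 0.26 with ORIN1001 (edgeR adjusted p = 0.00419). It had -0.21 ± 0.33 with docetaxel (edgeR adjusted p = 0.671) and -2.59 ± 0.28 with the combination (edgeR adjusted p = 7.51e-05). The share of genes lower in J2 was 21.1%, 14.9%, 12% and 20.5% in the same order. Ccl5 was lower in all 4 treatments, from -2.84 ± 0.38 with vehicle (edgeR adjusted p = 0.000193) to -1.76 ± 0.40 with docetaxel (edgeR adjusted p = 0.0087). The docetaxel call of Ccl5 was lost without docetaxel 1 (-1.56, edgeR adjusted p = 0.105) or docetaxel 2 (-1.83, edgeR adjusted p = 0.0922). Cxcl11 was lower with vehicle (-1.92 ± 0.56, edgeR adjusted p = 0.0134) and with the combination (-2.19 ± 0.58, edgeR adjusted p = 0.00925), and Cxcr3 with the combination (-1.75 ± 0.62, edgeR adjusted p = 0.0376). The Cxcl11 call was lost without vehicle 3 (-1.47, edgeR adjusted p = 0.0884) for vehicle, and without combination 1 (-1.70, edgeR adjusted p = 0.0635) or combination 3 (-1.51, edgeR adjusted p = 0.135) for the combination, and the Cxcl9 call for vehicle without vehicle 2 (-1.03, edgeR adjusted p = 0.0514). The Cxcr3 call held in 3 of 12 such fits, with log2 ratios of -2.21 to -1.56. Cxcl10 passed in no treatment.

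The J2 to input ratio of Cxcl9 was lower in the combination than in each other group. Per tumour, J2 CPM was 0.480, 0.453 and 0.478 times the input CPM with vehicle and 0.350, 0.420 and 0.559 times with ORIN1001. It was 0.509 and 0.975 times in docetaxel tumours 1 and 2, and 0.142, 0.225 and 0.144 times with the combination, below all of these. The input of docetaxel tumour 3 had 0 counts and gives no ratio. The log2 ratio differed between the combination and vehicle by -1.51 ± 0.38 (SE, edgeR adjusted p = 0.00966), where 17.1% of genes were lower. It differed by -1.39 ± 0.37 from ORIN1001 (edgeR adjusted p = 0.018), where 12.2% were lower, and by -2.38 ± 0.43 from docetaxel (edgeR adjusted p = 0.00134), where 17.6% were lower.

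Cxcl9 was thus higher in input and in J2 libraries of the combination, and the difference from vehicle was larger in the input (3.36) than in J2 (1.80). The difference from ORIN1001 lost its call without ORIN1001 2 (-1.41, edgeR adjusted p = 0.0597), ORIN1001 3 (-1.21, edgeR adjusted p = 0.0784) or combination 3 (-1.27, edgeR adjusted p = 0.0755). Those from vehicle and docetaxel kept it without any 1 tumour. The J2 libraries of the combination also carried the highest shares of ribosomal RNA, given above. With these loci left out before scaling, the Cxcl9 changes were -1.55, -1.44 and -2.46, and in that order the edgeR adjusted p were 0.0087, 0.0158 and 0.00111. The 2 shallowest of these libraries had 2.54 and 4.69 M gene counts, and what part depth had in the ratio was not tested.

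No other gene of the 5 passed in edgeR for a change of its J2 to input ratio between treatments. Cxcl10 was at 1.15, 1.15 and 1.37 times its input level with vehicle and at 1.50, 1.29 and 1.06 times with ORIN1001. It was at 1.34, 1.30 and 0.333 times with docetaxel and at 0.967, 0.755 and 0.537 times with the combination. The combination lay below 1 and below both vehicle and ORIN1001 tumours. Its fitted change was -0.74 ± 0.37 against vehicle (SE, edgeR adjusted p = 0.148) and -0.81 ± 0.37 against ORIN1001 (edgeR adjusted p = 0.135). For ORIN1001 against vehicle the change was -0.11 ± 0.37 for Cxcl9 (edgeR adjusted p = 1) and 0.07 ± 0.37 for Cxcl10 (edgeR adjusted p = 1). Under neither single drug did the ratio of any of the 5 genes, or of any gene of the table (0%), pass in edgeR, with 0 of the 5 at an unadjusted p under 0.05. DESeq2 and limma-voom also called 0.

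**Figure D5:**
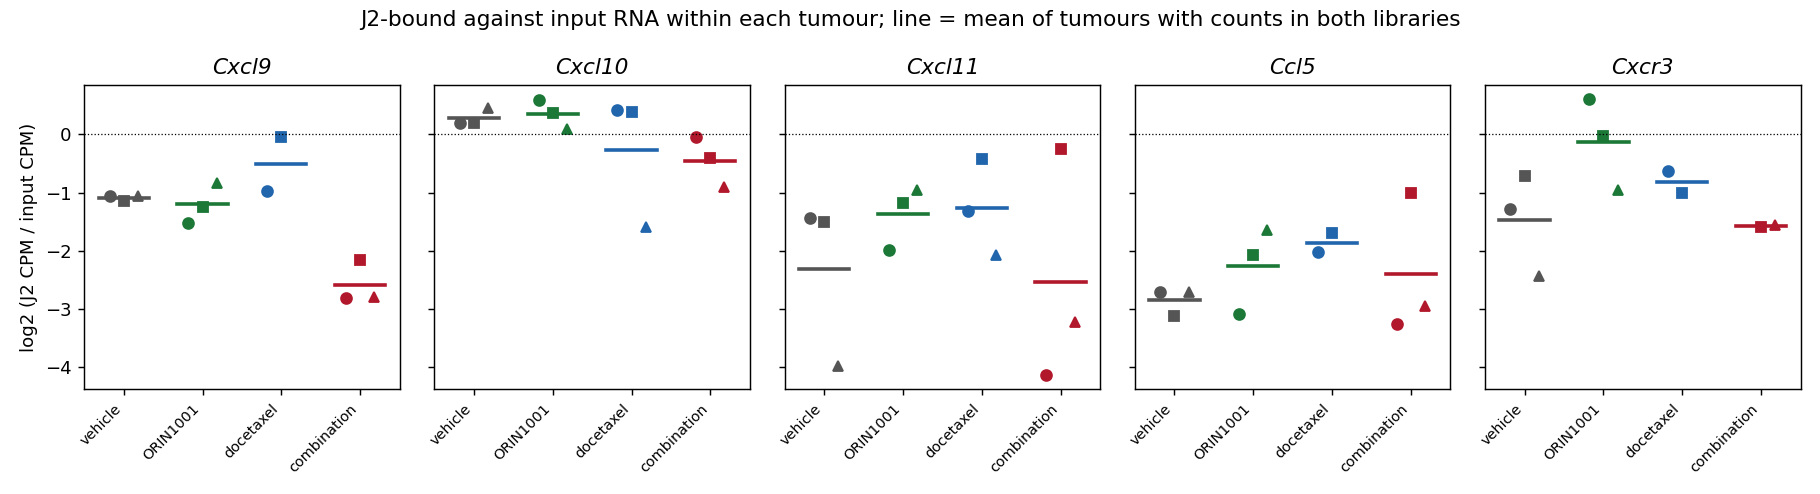
Log2 ratio of J2 CPM to input CPM within each tumour (y axis) by treatment (x axis), with 1 panel per gene. Points are tumours (circle, square and triangle for replicates 1, 2 and 3), tumours with 0 counts in either library are not drawn, lines are means of the tumours drawn, and the dotted line marks equal CPM. Cxcl9 lies below the line and lowest in the combination, Cxcl10 on both sides of it, and Ccl5 below it in every tumour drawn.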

How the data were processed

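Members and gene lists were chosen with earlier results of these data known. The deposited values are counts, whole numbers of reads per gene and library. The mm10 build, STAR (2.7.3a), featureCounts (2.0.3) and fastp (0.23.2) are listed per the submitters' processing notes. The strand setting and the handling of reads with several alignments are not stated in the labels or file headers. Of 53465 rows, 53274 were matched to a symbol by Ensembl identifier, 50604 by its exact version.

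Counts were scaled by TMM, filtered with filterByExpr (minimum count 10, minimum total 15) and tested with the quasi-likelihood F test of edgeR 4.0.16 in R 4.3.3, two-sided, with Benjamini-Hochberg adjustment over all genes tested. Fits covered the 12 inputs, the 12 J2 libraries, and all 24 libraries, the last blocked by tumour, since the design text pairs each J2 library with its input. Within groups, an input and the J2 library of its tumour deviated together (r above 0.1) in 10 of 12 tumours. DESeq2 1.42.0 and limma 3.58.1 served as alternatives. The fits were also run on simulated counts with the same spread for every gene and no library of outlying composition. Those runs cannot show how the fits handle libraries such as the input of docetaxel tumour 3. CPM used TMM library sizes within inputs or within J2 libraries. The SE of a log2 difference in edgeR was its absolute size divided by the square root of the F statistic. Intervals took the normal quantile, which makes them narrower than the F test. Correlations used log2 CPM with a prior count of 2. Limits for a count of 0 take 3 counts and cover counting error only. Promoter sequences and coordinates are from RefSeq (GRCm38.p6).

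Named beside the 5 genes were up to 4 list members with the smallest p per comparison and the 5 most correlated genes with a mean log2 CPM of at least 0, leaving out gene models and pseudogenes. Cd8b1, Cd247, Ncr1 and Ifng were named beyond this rule, as were genes that complete a small count, after their values were seen. Exon lengths were not used, so levels are not compared between genes. Transposable element counts were not analysed here, and results of some listed genes are not reported here.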

Additional observations from a re-analysis of the deposited data

Results flagged for a closer look

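The J2 to input ratio of Cxcl9 differed between groups by a test of the difference itself, the change of the log2 ratio in edgeR with the tumour as a block. The change was -1.51 for the combination against vehicle (edgeR adjusted p = 0.00966), -1.39 against ORIN1001 (edgeR adjusted p = 0.018) and -2.38 against docetaxel (edgeR adjusted p = 0.00134).

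The J2 to input ratio of Cxcl10 was above 1 in all 3 vehicle tumours and below 1 in all 3 combination tumours, with group medians 0.61 apart on the log2 scale. It was likewise above 1 in all 3 ORIN1001 tumours, with medians 0.77 apart from the combination. That the groups lie on opposite sides was not tested as such, and the fitted changes of -0.74 and -0.81 did not pass (edgeR adjusted p = 0.148 and 0.135).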

How the results depend on the processing

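With 3 tumours per group and few reads of Cxcr3, the calls depend on single tumours more than the sizes do. Over 20 comparisons and up to 21 alternative settings each, 1273 recomputed values were counted, for genes selected among the 5 in each comparison. Of these 1128 kept their direction and side of the threshold, 98 lost a call, 27 gained one and 20 changed sign. Values of the 5 genes outside this selection also changed sign. The log2 ratio of J2 to input of Cxcl10 with docetaxel, 0.02 in the main fit, kept its sign in 9 of 19 settings. Where a value moved, the cause was not tested.

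In the inputs, the combination against vehicle had 3 genes called, with 0 under a replicate block, 4 in limma-voom, 4 when only the groups compared were fitted, and 0 to 4 without single tumours. Against ORIN1001 alone, 4 became 2 under the block, 5 in limma-voom and 0 to 4 without single tumours. Against docetaxel alone, 3 became 0 under the block, 0 with only the groups compared, 4 in limma-voom and 0 to 4 without single tumours. Docetaxel against ORIN1001 went from 0 to 1 in DESeq2, 2 in limma-voom and 1 without the low-count filter, and the interaction from 0 to 2 in DESeq2, 3 in limma-voom and 0 to 2 without single tumours. In J2 libraries the combination against vehicle went from 1 to between 0 and 1 without single tumours. Against ORIN1001 it went from 0 to 1 without the filter and to between 0 and 1 without single tumours, and against docetaxel from 1 to 2 without the filter.

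Without the replicate block by tumour, the counts of genes lower in J2 were 1 in place of 3 for vehicle, 1 in place of 2 for ORIN1001, 2 in place of 4 for the combination and 3 in place of 4 on average. The change of the ratio then had 0 in place of 1 against vehicle and ORIN1001. Limma-voom had 2, 3 and 3 in place of 1 against vehicle, ORIN1001 and docetaxel. Without single tumours the counts were 2 to 3 for vehicle, 0 to 1 for docetaxel, 2 to 5 for the combination, and for the changes 1 to 2, 0 to 2 and 1 to 2.

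In the inputs, changes of sign touched small differences. Cxcl10 for docetaxel against vehicle was 0.016 in DESeq2, 0.058 in limma-voom, 0.017 with DESeq2 size factors, 0.026 with upper-quartile scaling, 0.012 under the block and -0.25 to 0.53 without single tumours. Cxcl10 for ORIN1001 against vehicle was -0.48 to 0.30 without single tumours. For docetaxel against vehicle Cxcl11 was 0.020 in limma-voom and -0.42 to 0.36 without single tumours, and Cxcr3 -0.53 to 0.016. Ccl5 for the combination against docetaxel was 0.056 under the block and -0.48 to 0.18 without single tumours. The log2 ratio of J2 to input without single tumours ran from -0.43 to 0.22 for Cxcl9 with docetaxel and from -0.011 to 0.18 for Cxcl10 on average. Larger differences of Cxcl11 in J2 libraries also changed sign without single tumours. For the combination, 1.09 against docetaxel ran from -0.48 to 2.08, and 0.86 against ORIN1001 from -0.70 to 1.39. For docetaxel against vehicle, 0.66 ran from -0.29 to 1.60.

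The block by replicate number in treatment comparisons is no pairing: tumours of 1 number came from different mice, and 0 of 18 such input pairs and 2 of 18 J2 pairs deviated together with r above 0.1. Leaving out ribosomal RNA loci and Gm26917 was chosen after seeing the data.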

Other observations

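Vehicle tumour 1 held the highest input level of Cxcl9, Cxcl10 and Cxcl11 in its group. It also held 93 counts of Ido1, an interferon-induced enzyme that breaks down tryptophan, while every other input had at most 2, those of the combination included. Ido1 was singled out after its values were seen, and no test was run on it.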
